A study of Mus musculus with 82 samples.

Results

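The loci described here are those of 7 mouse genes around which many more ATAC-seq peaks were listed at day 7 than at day 3 of reprogramming: Septin9, Rhou, Sipa1l2, Sh3pxd2a, Rbm20, Mvb12b and Tns3. In ATAC-seq the Tn5 transposase inserts adapters where chromatin is open, and peaks are stretches rich in insertions. The 7 genes were selected on their increase in listed peaks between the days, so the counts below describe that choice and carry no test. A peak was placed at a gene when it overlapped the gene. It was also placed there when its centre lay within 100 kb of an end of that gene and no other protein-coding gene had a nearer end. The 7 loci, of 21887 protein-coding genes, held 143 of the 55274 regions found by merging all 4 peak lists.

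The cells were OG2-MEFs, mouse embryonic fibroblasts, at passage 2, infected with retroviruses for OSKM (Oct4, Sox2, Klf4 and c-Myc). The 8 ATAC-seq samples, of 82 in the series, formed 4 groups of 2 replicates: D209N day 7, D209N day 3, Flag day 7 and Flag day 3. All 4 groups carried OSKM. The D209N groups were also infected with a retrovirus for RNase H1(D209N), a form of the RNA:DNA hybrid nuclease RNase H1 changed in its catalytic site, and the Flag groups, read here as the control, overexpressed Flag. Each group had 1 deposited peak list of intervals without score or read count, so neither a spread between replicates nor a test between groups could be had, and read depth is unknown. Every peak name in the lists carries rep1, and whether replicates were pooled is not given in the sources used here. The cells were measured in bulk, so whether a listed region was open in more cells or more strongly within each cell cannot be told apart. The labels name 2 culture media without saying which one these samples received.

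The lists held 40452 peaks for D209N day 7, 29189 for D209N day 3, 42439 for Flag day 7 and 36375 for Flag day 3. Their narrowest intervals were 1, 1, 1 and 2 bp in that order. In the same order 163, 162, 180 and 146 peak names stood on several intervals. Widths below are those of listed intervals, which can be parts of a named peak. A peak within 1 kb of a gene end stood at 6, 6, 5 and 5 of 8 fibroblast marker genes in these lists in the same order. The same held for 3, 1, 2 and 3 of 8 pluripotency marker genes, with none at Nanog, Esrrb, Dppa4, Dppa5a or Tdgf1 in any list. Just 1 of 4 macrophage and blood markers (Cd68) and 1 of 3 endothelial markers (Kdr) had such a peak in every list. The fibroblast markers Thy1 and Prrx1 had none in any list.

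Accessible regions away from promoters often act as enhancers, stretches where transcription factors bind and raise the output of a gene that may lie far away along the chromosome, and long genes carry many of them in their introns. During reprogramming with OSKM, fibroblast regions close and new regions open over days. The products of several of the 7 genes work at the cytoskeleton and the cell's adhesions. Septin9 encodes a septin, a GTP-binding protein that assembles into filaments with other septins. Rhou encodes an atypical small GTPase related to Cdc42. Tns3 encodes a tensin, which links integrin adhesions to actin, and Sh3pxd2a encodes TKS5, a scaffold of podosomes and invadopodia that is phosphorylated by Src. Sipa1l2 encodes a member of the SIPA1-like family of activators of Rap GTP hydrolysis. Mvb12b encodes a subunit of ESCRT-I, a sorting complex of endosomes, and Rbm20 a splicing factor best known from heart muscle.

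Gene starts and promoter sequences came from the RefSeq table for GRCm38.p6, which held 9 promoters for 5 of the 7 genes; Sh3pxd2a and Rbm20 had no entry. Each promoter runs 250 bases before to 50 after a start. Septin9 has 4 annotated promoters, of which 3 are shown because the lists covered them differently. Promoter 1, the outermost (chr11:117199411-117199710, plus strand), was covered by peaks at day 7 only, over 300 bases in D209N and 157 in Flag. Promoter 2 (chr11:117265996-117266295, plus strand) was covered over 171 bases in D209N day 3 and over all 300 in the other 3 lists. Promoter 3 (chr11:117331465-117331764, plus strand) was covered over 263 bases in the D209N day 7 list and not in the others. The Rhou promoter (chr8:123653679-123653978, plus strand), covered over 179 bases in D209N day 3 and over all 300 in the other lists, is shown beside them as the start of the locus with most of its peaks outside the gene. Capitals mark matches on either strand to TGANTCA (the AP-1 motif), ATGCAAAT (the POU octamer), CATTGT (SOX), GGAATG (TEAD) and GGGCGG (the GC box).
Septin9 promoter 1: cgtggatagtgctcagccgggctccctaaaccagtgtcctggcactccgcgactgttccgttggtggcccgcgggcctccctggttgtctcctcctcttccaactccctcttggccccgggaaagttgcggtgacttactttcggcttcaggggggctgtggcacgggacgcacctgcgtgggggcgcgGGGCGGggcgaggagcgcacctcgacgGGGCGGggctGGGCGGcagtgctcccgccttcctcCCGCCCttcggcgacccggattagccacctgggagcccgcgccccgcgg
Septin9 promoter 2: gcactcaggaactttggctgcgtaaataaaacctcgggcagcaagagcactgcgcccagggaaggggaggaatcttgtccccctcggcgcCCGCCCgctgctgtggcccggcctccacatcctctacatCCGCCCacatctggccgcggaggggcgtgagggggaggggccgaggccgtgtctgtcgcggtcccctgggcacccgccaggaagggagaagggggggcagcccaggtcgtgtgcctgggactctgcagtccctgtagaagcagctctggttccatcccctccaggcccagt
Septin9 promoter 3: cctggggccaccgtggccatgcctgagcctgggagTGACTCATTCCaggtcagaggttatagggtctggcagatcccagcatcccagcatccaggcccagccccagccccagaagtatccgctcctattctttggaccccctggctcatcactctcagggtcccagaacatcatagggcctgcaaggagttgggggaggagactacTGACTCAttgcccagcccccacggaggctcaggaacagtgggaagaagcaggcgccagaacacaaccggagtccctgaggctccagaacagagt
Rhou promoter 1: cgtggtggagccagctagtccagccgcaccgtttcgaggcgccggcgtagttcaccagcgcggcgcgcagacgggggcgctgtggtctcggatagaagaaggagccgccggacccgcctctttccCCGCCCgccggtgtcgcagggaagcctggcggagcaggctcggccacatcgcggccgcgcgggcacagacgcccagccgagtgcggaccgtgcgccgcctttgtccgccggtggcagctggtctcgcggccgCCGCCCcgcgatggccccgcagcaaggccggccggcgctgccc

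These promoters differed in composition. Septin9 promoter 1 was 71.3% G or C with 31 CG dinucleotides and 4 matches to the GC box, and promoter 2 was 67.7% G or C with 18 CG and 2 matches. Septin9 promoter 3 was 60.7% G or C with 5 CG, no GC box, 2 matches to TGANTCA and 1 to GGAATG, which overlapped the first TGANTCA match. The Rhou promoter was 75.7% G or C with 46 CG and 2 GC boxes. Over all 32851 promoters of the table the medians were 52.7% G or C and 7 CG. TGANTCA was found in 7.81% of them, ATGCAAAT in 1.74%, CATTGT in 12.6%, GGAATG in 14.7% and GGGCGG in 35.7%. A match is a stretch of letters and no evidence of binding. Septin9 promoter 4 was covered over 300, 78, 177 and 226 bases in D209N day 7, D209N day 3, Flag day 7 and Flag day 3, and the Tns3 promoter over 128, 93, 171 and 147. Sipa1l2 promoter 2 was covered over all 300 bases in each list. Sipa1l2 promoter 1 and the Mvb12b promoter were covered in none.

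Every locus held more peaks at day 7 than at day 3 in both arms. Over the 7 loci there were 116 peaks in D209N day 7 and 50 in D209N day 3, with 116 in Flag day 7 and 61 in Flag day 3. The increase was 66 peaks in D209N and 55 in Flag. The arms reached the same total at day 7, and the D209N list was the lower of the pair at day 3. The D209N day 3 list was also the shorter as a whole, with 29189 peaks against 36375 in Flag day 3. Per 10000 listed peaks the D209N day 3 value, 17.1, was not below that of Flag day 3, 16.8. In D209N, 6 of the 7 genes had at least 4 more peaks at day 7, against 3.29% of all protein-coding genes, and in Flag 6 of 7 did, against 2.22%. The genes were selected on these counts, so nothing is read from that difference. The day 7 lists were longer, and per 10000 listed peaks the 7 loci held 28.7 in D209N day 7 and 17.1 in D209N day 3, with 27.3 in Flag day 7 and 16.8 in Flag day 3. Scaled to the length of the day 3 list, the increase was 33.7 peaks in D209N and 38.4 in Flag.

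**Figure D1:**
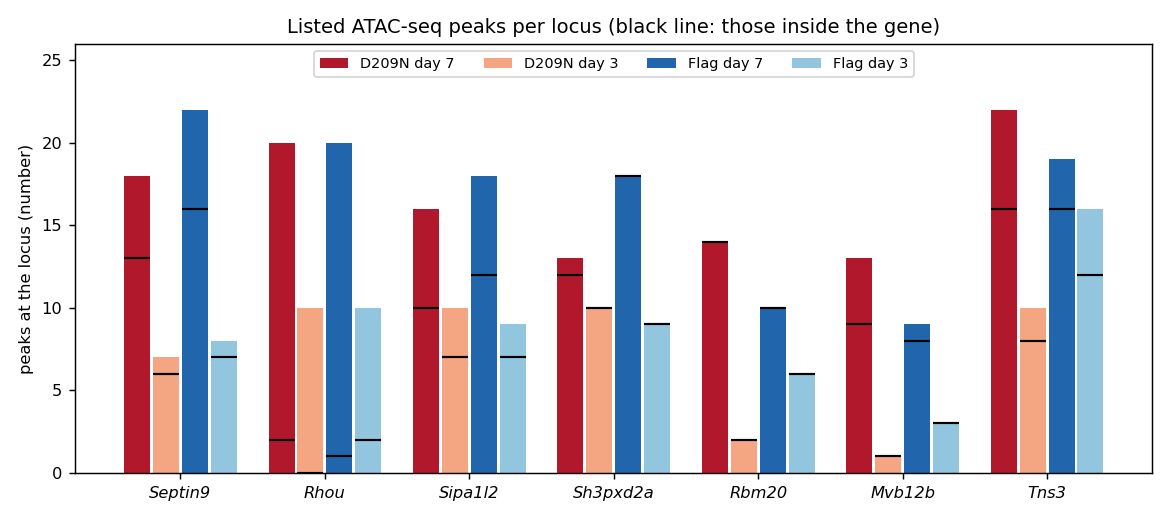
Bars give the number of listed peaks at each locus in the 4 lists, with 1 list per group and so no error bar, and the black line in each bar gives the number inside the gene. All 7 loci have higher day 7 than day 3 bars in both arms, and at Rhou nearly all of each bar lies above the black line.

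Apart from Rhou the genes were long. The other 6 spanned between 151.8 kb (Sipa1l2) and 233.1 kb (Tns3) and Rhou spanned 9.95 kb, against a median of 17.2 kb for all protein-coding genes. Genes of at least 100 kb made up 11.1% of protein-coding genes, and 13.9% of these had at least 4 more peaks at day 7 in D209N and 9.92% in Flag. Length therefore went with the number of added peaks over the genome. A gene takes every peak that overlaps it, so a longer gene can collect more added peaks by the placing rule alone. Peaks per kb of gene were not compared. Of the peaks at the 7 loci, 76 lay inside the genes in D209N day 7 and 34 in D209N day 3, with 81 in Flag day 7 and 46 in Flag day 3.

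Within an arm, regions listed at day 7 and not at day 3 are termed gained, those listed on both days kept, and those listed at day 3 and not at day 7 lost. Of the 121 member regions listed in the D209N arm, 71 were gained, 45 kept and 5 lost. The gained share was 58.7% (Wilson 95% interval 49.8 to 67.1, counting error only), against 35.9% of all regions of that arm, and the lost share 4.13%, against 10.3%. Of the 122 listed in the Flag arm, 61 were gained, 55 kept and 6 lost. The gained share was 50.0% (41.3 to 58.7), against 28.6% of all regions, and the lost share 4.92%, against 16.3%. The genes were chosen on the same lists, so nothing is read from these shares. Of the 143 member regions, 39 (27.3%) were in all 4 lists, against 39.4% of all regions, and 42 (29.4%) were in 1 list only, against 26.3%.

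**Figure D2:**
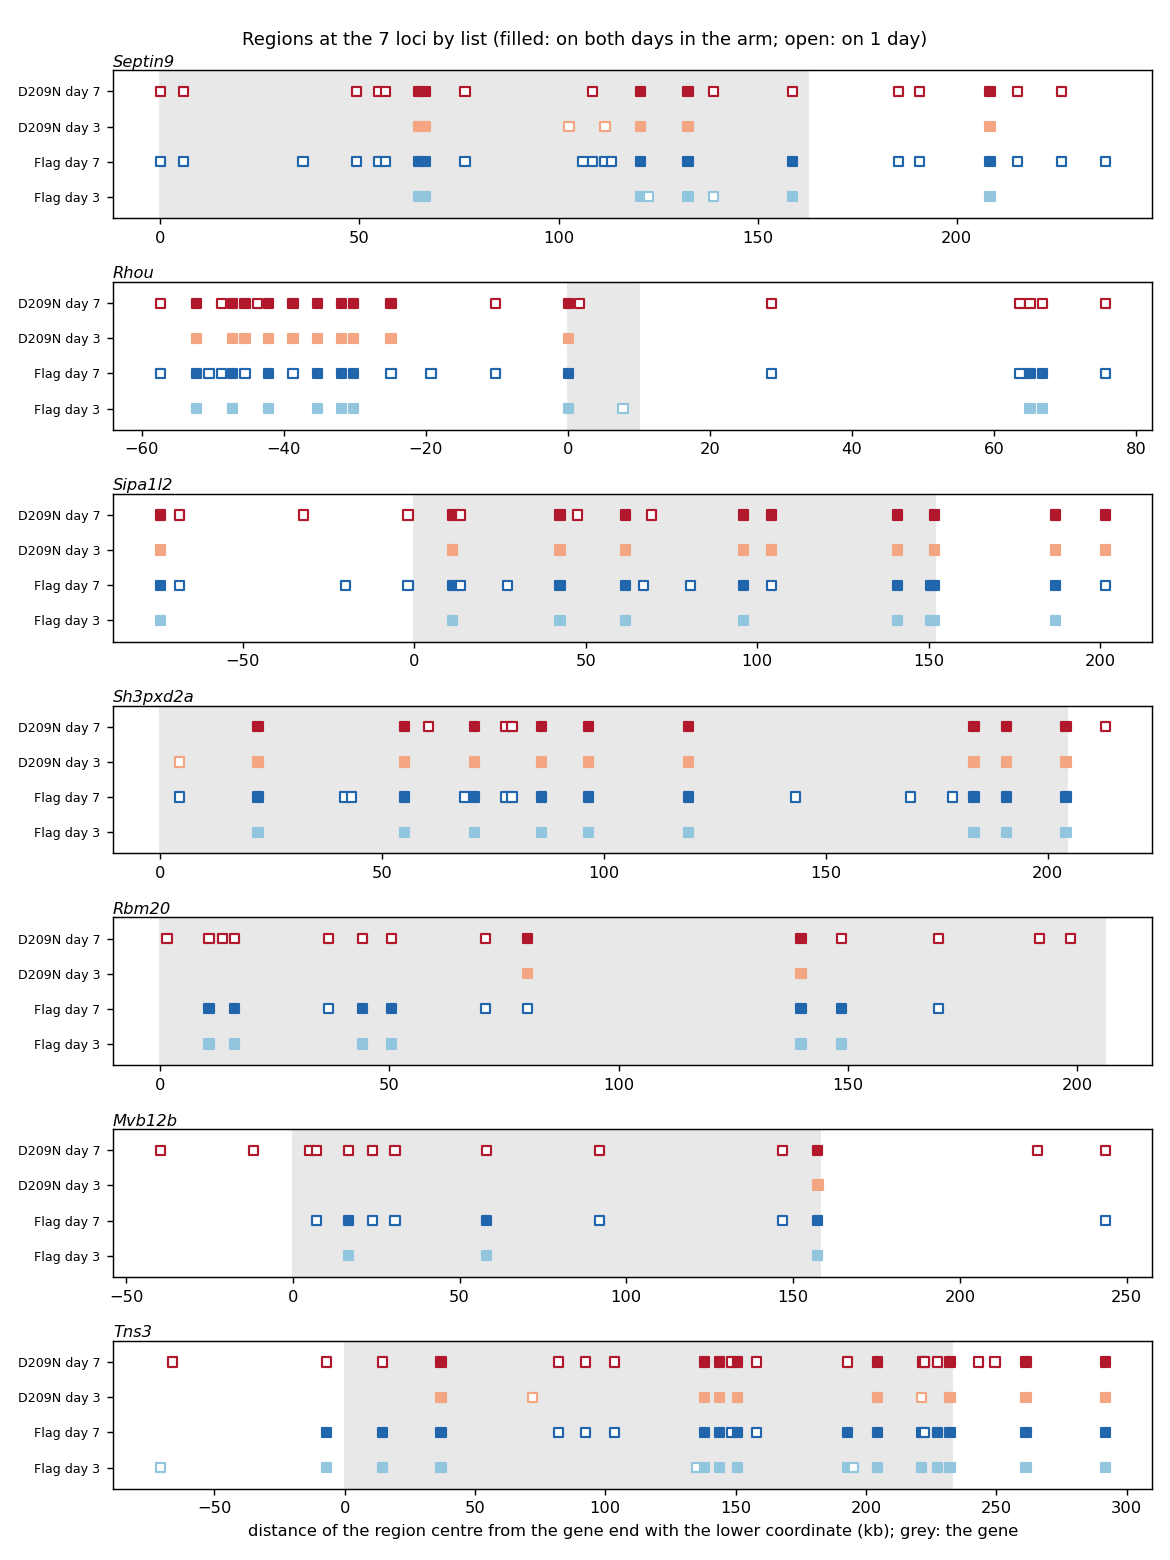
Each square is a listed region, placed by the distance of its centre from the gene end with the lower coordinate in kb, with 1 row per list and the gene shaded grey. Filled squares are regions listed on both days of the arm and open squares regions listed on 1 day; open squares fill most of the day 7 rows of Rbm20 and Mvb12b in D209N and stand between filled ones at Sh3pxd2a.

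Few regions at the 7 loci lay at gene ends, gained or kept. Of the gained regions at the 7 loci, 1 of 71 in D209N (1.41%, interval 0.249 to 7.56) and 1 of 61 in Flag (1.64%, 0.290 to 8.72) lay within 1 kb of a protein-coding gene end, and in both arms it was the outer start of Septin9. Over all gained regions the share was 15.6% in D209N and 13.2% in Flag. Of the kept regions, 11.1% in D209N and 10.9% in Flag lay at such an end, against 42.8% and 40.6% of all kept regions, so the low share was not limited to the gained ones. The loci were chosen on their gains, and each holds many regions and few gene ends. A low share goes with that choice, and the shares are a description. A gene-end peak was already listed at day 3 in both arms at Rhou, Sipa1l2, Sh3pxd2a, Mvb12b and Tns3. No list had one at Rbm20, and Septin9 had one in both day 7 lists only.

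Septin9 (chr11:117199661-117362325, plus strand, 162.7 kb) held 18 peaks in D209N day 7 and 7 in D209N day 3, with 22 in Flag day 7 and 8 in Flag day 3. Both day 7 counts were more than 10 above those of day 3. No peak was listed at day 3 in either arm over the first part of the gene, up to a region 64.95 kb from the outer start. At day 7 this stretch held 5 peaks in D209N and 6 in Flag, of which 5 regions were shared, beginning with the one at the start (chr11:117199350-117199918). The 5 regions in all 4 lists included the one over promoter 2 and the one over promoter 4 (chr11:117331502-117332853). That last region was 1352 bp wide in D209N day 7 and 236 bp in D209N day 3, with 560 bp in Flag day 7 and 644 bp in Flag day 3, and only the widest of these reached over promoter 3. Beyond the far end of the gene 6 regions were listed, 1 of them kept in both arms and the other 5 gained in Flag, 4 of these also in D209N. At Septin9 2 regions moved in opposite directions: chr11:117311145-117311534 was lost in D209N and gained in Flag, and chr11:117338504-117338824 was gained in D209N and lost in Flag.

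Rhou (chr8:123653929-123663880, plus strand, 9.95 kb) held 20 peaks in D209N day 7 and 10 in D209N day 3, with 20 in Flag day 7 and 10 in Flag day 3. The arms gave the same counts on each day, but not the same regions: 18 regions were shared at day 7 and 7 at day 3. Only 2, 0, 1 and 2 of these peaks overlapped the gene in the 4 lists in that order. Most stood in a stretch of 13 regions between 57.4 and 24.9 kb upstream of the start, picked out after its positions had been seen. The outer limit comes from the placing rule: the next region, 59.07 kb upstream and in all 4 lists, was nearer an end of Gas8. These 13 were spaced a median of 1.78 kb apart (lowest 1.56, highest 5.31). Of them 12 were listed in D209N day 7 and 9 in D209N day 3, with 12 in Flag day 7 and 6 in Flag day 3. The stretch was thus largely present at day 3 in D209N, and day 7 filled gaps in it. Downstream, 5 regions between 18.7 and 65.7 kb from the far gene end were listed in both day 7 lists, 2 of them in Flag day 3 and none in D209N day 3.

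Sipa1l2 (chr8:125418068-125569863, minus strand, 151.8 kb) held 16 peaks in D209N day 7 and 10 in D209N day 3, with 18 in Flag day 7 and 9 in Flag day 3. Its 21 regions included 8 in all 4 lists, and D209N gained 6 and lost none while Flag gained 9 and lost none. The gains common to the arms were 3 of 6 in D209N and 3 of 9 in Flag. The region over the start (chr8:125569177-125570348) was wide in every list, at 1080, 1073, 994 and 694 bp in the same order. The gains of either arm thus stood around a set of regions that both arms kept.

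Sh3pxd2a (chr19:47260174-47464612, 204.4 kb) held 13 peaks in D209N day 7 and 10 in D209N day 3, with 18 in Flag day 7 and 9 in Flag day 3. The same 9 regions were kept in both arms, among them the widest at any of the loci (chr19:47314240-47316097), at 1709, 1503, 1775 and 1494 bp in the same order. D209N gained 4 regions and Flag 9, of which 2 were common. A set of 6 regions was listed on neither day in D209N and gained in Flag, and these were narrow, at 147 to 407 bp. Scaled to the length of the day 3 list, the D209N difference at this locus was -0.62 peaks, so its rise there did not exceed that of the list. One region (chr19:47264457-47264723) was lost in D209N and gained in Flag.

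Rbm20 (chr19:53660989-53867083, 206.1 kb) held 14 peaks in D209N day 7 and 2 in D209N day 3, with 10 in Flag day 7 and 6 in Flag day 3. All 14 regions lay inside the gene. The D209N day 7 list contained every region of the other 3 lists. Of the 12 regions gained in D209N, 5 were already listed at day 3 in Flag, 3 were gained in both arms and 4 were listed in D209N day 7 only. The widest of these 12 (chr19:53676633-53677606) was 926 bp in D209N day 7 and absent from D209N day 3, and measured 966 bp in Flag day 7 and 853 bp in Flag day 3. The larger D209N increase at Rbm20 therefore came with a lower day 3 count as well as a higher day 7 count than in Flag.

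Mvb12b (chr2:33729953-33887946, minus strand, 158.0 kb) held 13 peaks in D209N day 7 and 1 in D209N day 3, with 9 in Flag day 7 and 3 in Flag day 3. The D209N day 3 peak was the one near the start (chr2:33886954-33887837), which was in all 4 lists, at 611, 223, 884 and 652 bp in the same order. All 6 regions gained in Flag were also gained in D209N. A further 2 gained in D209N were kept in Flag, and 4 were in D209N day 7 only. A run of 10 neighbouring regions was gained in D209N, the longest such run at any of the loci in either arm.

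Tns3 (chr11:8431652-8664758, minus strand, 233.1 kb) held 22 peaks in D209N day 7 and 10 in D209N day 3, with 19 in Flag day 7 and 16 in Flag day 3. The Flag increase, 3 peaks, was the smallest of the 7 loci in that arm. A single peak name can stand on more than 1 listed interval, and each interval is counted as a peak here. By distinct names Tns3 held 21 in D209N day 7 and 10 in D209N day 3, with 18 in Flag day 7 and 16 in Flag day 3. Of 14 regions gained in D209N, 6 were gained in Flag too and 4 were listed in Flag on both days. Opposite calls stood side by side at Tns3 in one place, where a region lost in D209N (chr11:8652664-8653366) lay 39 bp from one of 50 bp gained in D209N (chr11:8653406-8653455). The next region, gained in both arms, lay 367 bp further on. Merged within 500 bp, these regions form a region listed in D209N on both days. The calls there thus depended on where the intervals ended. Another (chr11:8624093-8624963) was 763 bp in D209N day 7 and absent in D209N day 3, with 750 bp in Flag day 7 and 45 bp in Flag day 3.

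The arms overlapped at day 7. Of the 71 regions gained in D209N, 71.8% (60.5 to 81.0) were listed in Flag day 7, against 71.9% of all regions gained in D209N. Of the 61 gained in Flag, 70.5% (58.1 to 80.4) were listed in D209N day 7, against 58.3% of all regions gained in Flag. Genes whose peaks increased in both arms were chosen, so the shares are a description. Counting only regions absent at day 3 from both arms, the shares were 66.1% (all regions 65.3%) and 69.8% (all regions 55.6%). Of the D209N gains, 15 (21.1%, all regions 32.3%) were already listed in Flag day 3, 5 of them at Rbm20 and 4 at Tns3. Of the Flag gains, 8 (13.1%, all regions 10.8%) were already listed in D209N day 3, 3 of them at Rhou and 2 at Sipa1l2. At day 7, 96 regions were in both arms (70.6% of those listed that day, against 72.7% over all regions), 20 in D209N only (14.7%, against 11.7%) and 20 in Flag only (14.7%, against 15.6%). At day 3, 40 were in both (56.3%, against 66.9%), 10 in D209N only (14.1%, against 7.30%) and 21 in Flag only (29.6%, against 25.8%).

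By median, gained regions were narrower than kept ones, and so were lost ones. In D209N day 7 the median width was 328 bp over the 71 gained regions (range 50 to 926) and 541 bp over the 45 kept (190 to 1709). In Flag day 7 it was 328 bp over the 61 gained (145 to 1032) and 504 bp over the 55 kept (250 to 1775). The order of the medians was the same at each of the 7 loci in both arms. It was also that of the whole lists, where gained regions measured 315 bp and kept ones 664 bp in D209N, and 285 and 611 bp in Flag. Away from gene ends, the kept regions measured 528 bp at the 7 loci and 527 bp over all regions in D209N, and 490 and 485 bp in Flag. The gained ones measured 326 and 304 bp in D209N, and 327 and 281 bp in Flag. At day 3 the D209N medians were 184 bp over the 5 lost regions and 392 bp over the 45 kept (all regions 305 and 510 bp). In Flag they were 228.5 bp over the 6 lost and 408 bp over the 55 kept (all regions 316 and 543 bp). A smaller width thus went with listing on 1 day of an arm and was not particular to gains.

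**Figure D3:**
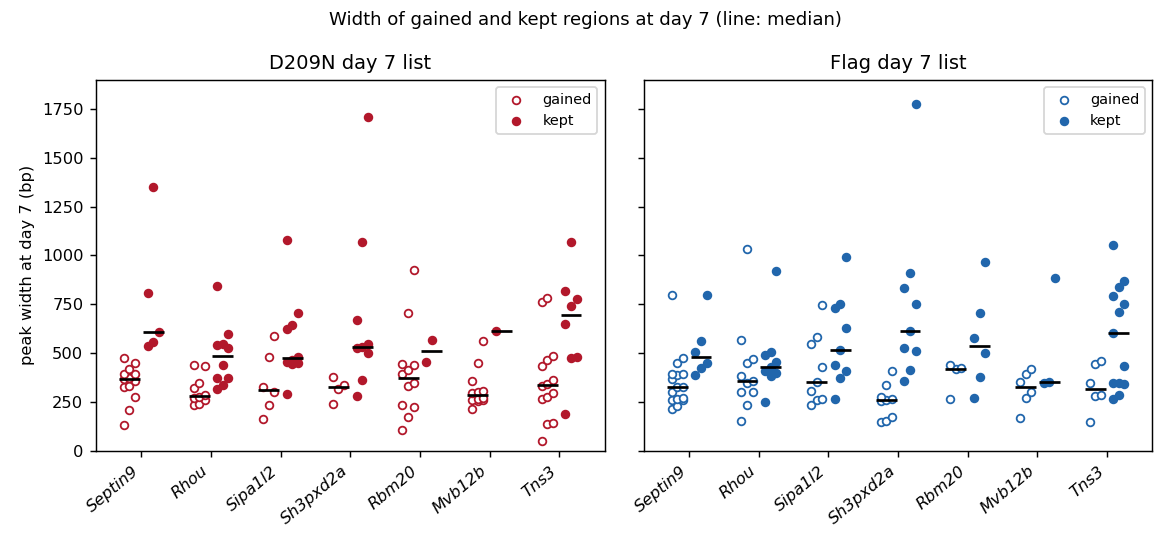
Points give the width in bp at day 7 of each gained (open) and kept (filled) region at the 7 loci, with D209N on the left and Flag on the right, and lines give the medians. The gained medians lie below the kept ones at every locus, and over the 7 loci they are 328 bp in both arms, against 541 bp for kept regions in D209N and 504 bp in Flag.

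Most regions kept on both days were wider at day 7, at these loci as over all regions. The median ratio of day 7 to day 3 width was 1.26 at the 7 loci in D209N, with 35 of 45 regions wider (77.8%), and 1.19 in Flag, with 39 of 55 wider (70.9%). Over all kept regions the ratio was 1.23 in D209N, with 77.8% wider, and 1.10 in Flag, with 66.5% wider. At Septin9 and Mvb12b the Flag medians, taken without pairing the regions, were lower at day 7. The median of the 6 kept regions at Septin9 was 477.5 bp at day 7 and 482.5 bp at day 3. That of the 3 at Mvb12b was 352 bp at day 7 and 381 bp at day 3. Paired by region, these 3 measured 345 bp at day 7 and 254 bp at day 3, 352 and 381 bp, and 884 and 652 bp. Septin9 regions also went both ways, such as 797 bp at day 7 and 431 bp at day 3 against 451 and 788 bp. The day 3 medians of the kept regions were 392 bp in D209N and 408 bp in Flag. At Rhou all kept widths in D209N day 3 were below the median width of that list, 464 bp.

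Taken over the 7 loci, the peaks stood closer together at day 7. The median distance between the centres of neighbouring peaks was 9.97 kb in D209N day 7 and 15.2 kb in D209N day 3, with 9.57 kb in Flag day 7 and 15.5 kb in Flag day 3. In the whole lists it was 22.3, 34.3, 20.7 and 27.9 kb in the same order. The 7 loci were chosen for many added peaks, and closer spacing at day 7 goes with that choice. Neither the closer spacing nor the difference from the whole lists is read as a result. Rhou had the closest spacing in every list, at 3.40 kb in D209N day 7 and 3.42 kb in D209N day 3, with 3.45 kb in Flag day 7 and 5.12 kb in Flag day 3. In D209N its median spacing was nearly the same on both days although 10 peaks were added, and these fell both inside the upstream stretch and far from it. At Septin9 the medians were 9.97 kb in D209N day 7 and 10.6 kb in D209N day 3, and at Rbm20 in Flag the day 7 median, 9.03 kb, was no shorter than the day 3 one, 8.95 kb. The medians differed more between the days at Sipa1l2, at 13.9 kb in D209N day 7 and 31.1 kb in D209N day 3, with 13.8 kb in Flag day 7 and 32.8 kb in Flag day 3.

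**Figure D4:**
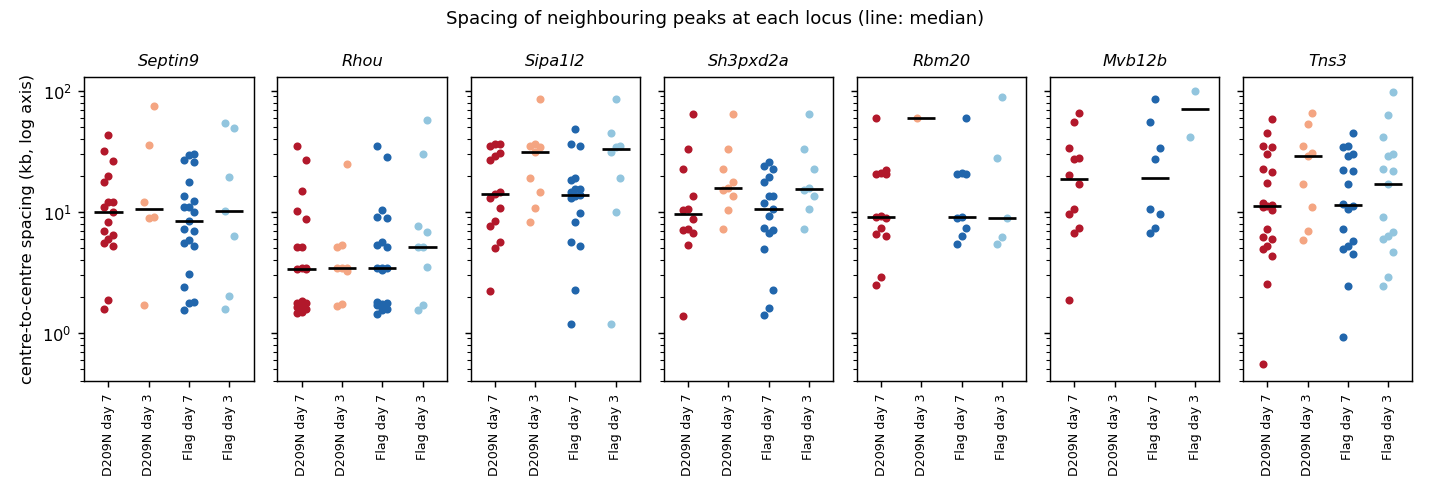
Points give the distance in kb (log axis) between the centres of neighbouring peaks at each locus in the 4 lists, and lines give the medians. Medians lie between 3.40 and 5.12 kb at Rhou in all lists, and Mvb12b has no value for D209N day 3, where a single peak was listed.

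Gained regions stood at different distances from kept ones. The median distance from a gained region to the nearest region kept in the same arm was 22.2 kb in D209N (all gained regions 20.7 kb) and 10.95 kb in Flag (all 17.2 kb). In D209N it was 6.61 kb at Sipa1l2 and 6.92 kb at Sh3pxd2a, where gains stood among kept regions. It was 130 kb at Mvb12b, where 1 region was kept, and 28.7 kb at Rbm20, where 2 were. In Flag it ranged between 3.40 kb at Rhou and 20.8 kb at Rbm20 and Tns3.

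Each peak name carried a serial number that ascended along the list with gaps, so some numbered peaks were not listed. Across the 7 loci 115 of 162 numbers were listed in D209N day 7 and 50 of 72 in D209N day 3, with 115 of 150 in Flag day 7 and 61 of 76 in Flag day 3. Numbered totals were higher at day 7 at every locus in both arms, by 90 in D209N and 74 in Flag over all 7. They include the listed peaks, on which the loci were chosen, so nothing is read from this. The whole lists were numbered higher at day 7 as well, at 55198 in D209N day 7 and 36527 in D209N day 3. In Flag these totals were 53838 at day 7 and 40276 at day 3. Of the whole-list numbers, 72.99% were listed in D209N day 7 and 79.47% in D209N day 3. In Flag 78.49% were listed at day 7 and 89.95% at day 3. At the 7 loci the listed shares were 70.99, 69.44, 76.67 and 80.26% in the same order. Numbers were thus skipped in the whole lists as well as at the loci. At Mvb12b 13 of 15 numbers were listed in D209N day 7 and 1 of 6 in D209N day 3, with 9 of 13 in Flag day 7 and 3 of 3 in Flag day 3. The low D209N day 3 count there thus came with 5 skipped numbers. What the skipped numbers stood for is not given in the sources used here, and their part in the counts was not tested.

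**Figure D5:**
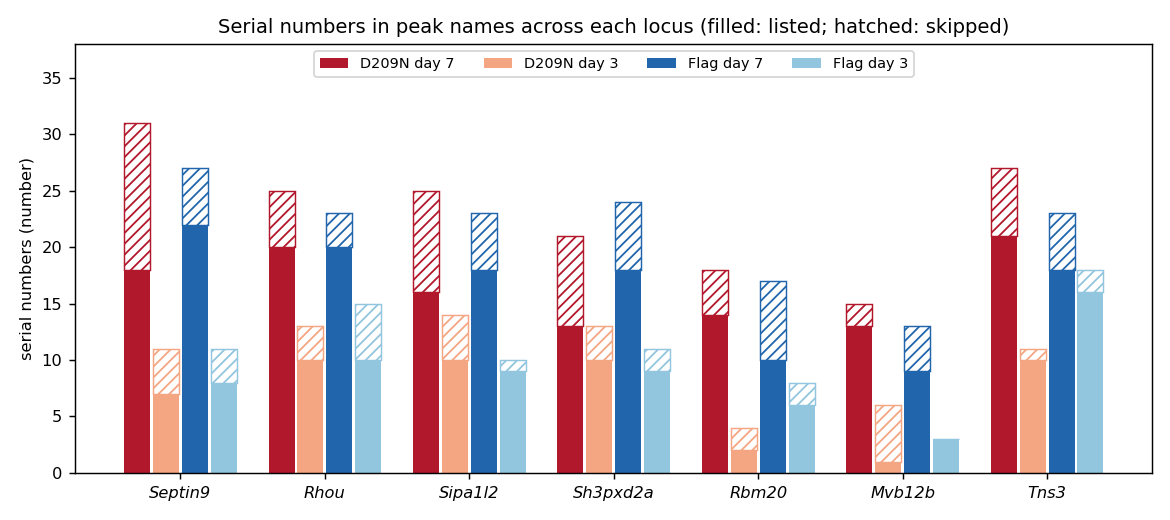
Bars give the number of serial numbers in peak names across each locus in the 4 lists, with listed numbers filled and skipped ones hatched. Whole bars are taller at day 7 than at day 3 at all 7 loci in both arms, and at Mvb12b 5 of 6 numbers in D209N day 3 are skipped.

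The 100 kb limit touched few regions. Just inside it lay a Mvb12b region 85.6 kb beyond the gene (chr2:33973385-33973683), listed in both day 7 lists. Just outside lay a region 113.7 kb beyond Septin9 in Flag day 7 only, one 127.3 kb beyond Mvb12b in D209N day 7 only and one 137.9 kb beyond Tns3 in D209N day 7 only. At the other sides of the loci a neighbouring gene's end was nearer.

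Genes bordering the loci varied. Lmx1b, beside Mvb12b, encodes a LIM homeodomain transcription factor and held 8 peaks in D209N day 7 and 1 in D209N day 3, with 9 in Flag day 7 and 1 in Flag day 3. Rab4a, beside Rhou, encodes an endosomal GTPase and held 5, 0, 7 and 2, and Disc1, beside Sipa1l2, held 10, 4, 10 and 5. Smc3, a cohesin subunit gene beside Rbm20, held 2, 2, 2 and 3, and Gm30990 on its other side held 1 in every list. Gas8, beside Rhou, held 18, 11, 16 and 13, and Sec14l1, beside Septin9, held 9, 4, 10 and 5. The other bordering genes, Tnrc6c, Map10, Neurl1a, Stn1, Pbx3, Igfbp3 and Pkd1l1, differed between the days by -1 to 3 peaks in either arm. Rbm20 was thus the locus with no added peak at either bordering gene in either arm. Each of the other 6 had at least 1 bordering gene with added peaks in D209N. In Flag the genes bordering Tns3 also had none, at 0 for Igfbp3 and -1 for Pkd1l1. Over all protein-coding genes, 34.6% held more peaks at day 7 in D209N and 29.7% in Flag. With a bordering gene on both sides of each locus, nothing is read from these counts.

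Relatives of the members by family and complex numbered 53. In D209N 23 held more peaks at day 7 and 4 fewer (43.4% more, against 34.6% of all protein-coding genes), and in Flag 24 more and 6 fewer (45.3%, against 29.7%). The median difference was 0 in both arms, as for all genes. At least 4 more peaks were held by 5 in D209N (9.43%, against 3.29% of all protein-coding genes) and 3 in Flag (5.66%, against 2.22%). Among genes of at least 100 kb the shares were 13.9% in D209N and 9.92% in Flag. The relatives were not matched for length, so nothing is read from the difference. The relatives with a change of at least 4 peaks follow by name. Tns1, another tensin, held 22 in D209N day 7 and 12 in D209N day 3, with 22 in Flag day 7 and 16 in Flag day 3. The Sipa1l2 relatives Sipa1l1 (7, 3, 7 and 4) and Sipa1l3 (9, 4, 12 and 7) both held more at day 7. So did Sh3pxd2b, the TKS4 scaffold gene (6, 1, 5 and 4), the kinase gene Src (6, 3, 9 and 3) and the small GTPase gene Rhof (7, 2, 5 and 2). Ryr2, a cardiac calcium channel gene whose transcript Rbm20 is known to splice, held 3, 4, 1 and 6, fewer at day 7. No other septin changed by as many as 4 peaks, and the 8 other ESCRT-I genes changed by between -1 and 3.

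Genes outside the 7 had like counts. The nearest by their 4 counts to the members' medians were Atxn1 (17, 8, 16 and 9 peaks in the order of the lists above), Col4a2 (14, 8, 18 and 8) and Trak1 (17, 8, 16 and 8), followed at equal distance by Nedd4l, Nfatc2 and Tshz2. The largest summed increases outside the 7 were at Gse1 (23 peaks), Arhgap26 (22), Camta1 (21) and Thsd4 (21). The next place, at 20, was shared by the gene models Gm37013, Gm38666 and Gm38667, whose 4 counts were identical. Septin9, with 25, had the largest sum of any protein-coding gene, and Sh3pxd2a, with 12, ranked 82nd.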

How the data were processed

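ATAC-seq libraries were made with Tn5 transposase, per the labels' protocols. Tools and builds listed per the submitters' processing notes are Bowtie2 2.3.2, CASAVA, GRCm38.p5 and mm10. The authors deposited 1 list per group, whose only values are other than counts or signal: interval start and end positions in bases. Not given in the sources used here are the peak caller, its threshold, insertion offsets and whether replicates were pooled. Lists were matched to groups by arm and day in the peak names, every one of which carries rep1.

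Genes came from RefSeq (GRCm38.p6), 21887 protein-coding genes on the main chromosomes. Lists were merged by at least 1 shared base; spacing is centre to centre. Python 3.11.15, numpy 2.4.6, pandas 2.3.3, scipy 1.17.1 and matplotlib 3.10.9 were used, and assignment and merging were tested on simulated data. With 1 list per group no test was made. The members and gene lists were chosen with earlier results of these data known. Genes named outside the 7 were those nearest in their 4 counts to the members' median, those with the largest summed increases (5 each, ties included), relatives changed by at least 4 peaks in either arm, and the genes bordering a locus. Alternatives were other windows, genes only, width filters, list scaling, merging within 500 bp, 50% coverage and leaving out Septin9.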

Additional observations from a re-analysis of the deposited data

Results flagged for a closer look

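At 2 regions of Septin9 and 1 region of Sh3pxd2a the arms moved in opposite directions between the days, listed at day 7 and not at day 3 in one arm and the reverse in the other. These were 3 of the 143 member regions. The share of such opposite calls over all regions is not given here, so nothing is read from them. With 1 list per group this difference between the arms was not tested. The Septin9 regions were 319 bp wide in D209N day 3 and 214 bp in Flag day 7 at chr11:117311145-117311534, and 210 bp in D209N day 7 and 155 bp in Flag day 3 at chr11:117338504-117338824. The Sh3pxd2a region was 155 bp in D209N day 3 and 267 bp in Flag day 7.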

How the results depend on the processing

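The increase over the 7 loci, 66 peaks in D209N and 55 in Flag, was above 0 under every alternative tried. The loci were chosen for this increase in the same lists, so its sign under these alternatives is no support for it. It was 42 and 35 when peaks had to overlap the gene, 19 and 15 when they had to reach the median width of their list, and 33.7 in D209N when scaled to the day 3 list. The gained regions, 71 in D209N and 61 in Flag, numbered 21 and 20 with that width filter. Of 84 values for single loci under these alternatives, 81 were above 0, 1 was at 0 and 2 were below: Sh3pxd2a in D209N scaled to the day 3 list, at -0.62, and Rhou in Flag inside the gene, at -1. Others came close to 0: Tns3 was 0.29 in Flag when scaled (3 as reported) and 1 in D209N with the width filter (12 as reported). Rhou, 10 in each arm, was 5 in D209N and 6 in Flag within 50 kb, and 3 and 2 within 20 kb. Windows of 50 and 20 kb, merging within 500 bp, 50% coverage and leaving out Septin9 moved no total by over 1.5 times. The shares listed in the other arm stayed within their intervals, and median widths and spacings stayed within 1.5 times, under the alternatives tried for them. No paired analysis was possible because each group has 1 list, and for the same reason no replicate could be left out. Depth is unknown, so a region absent from a list is not shown to be closed.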
